A study of Mus musculus with 6 samples.

Results

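Gadd45a, Gadd45b, Gadd45g, Plk3 and Ndrg1 were followed here as a set of 5 stress-induced growth arrest genes among the 55291 genes counted in wild-type mouse embryonic fibroblasts (WT MEFs). All 5 were among the 14290 genes with enough reads to be tested. The genes were chosen by name. Gadd45a, Plk3 and Ndrg1 were selected on their values with MFI8 against vehicle, in the same libraries described here, and Gadd45b and Gadd45g were added as the rest of the GADD45 family. For that reason the values with MFI8 are given as a description, and where a fit over all genes calls one of the 5 in that contrast, the call follows from the choice and is not evidence.

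The study used small molecules that act on mitofusins, the outer-membrane proteins that fuse mitochondria. RNA was sequenced from WT MEFs given vehicle, the mitofusin activator MASM7 or the mitofusin inhibitor MFI8, with 2 libraries for each of the 3 groups. In the study's account of the RNA-seq, MASM7 was used at 1 µM and MFI8 at 20 µM, both for 6 h, while no duration is stated there for vehicle. The concentrations differ, so compound and concentration cannot be told apart in any difference between MASM7 and MFI8. All libraries came from cells with intact mitofusin genes, so no library shows the response without the target. The sources used here do not say whether the 2 libraries of a group came from separate cultures, and p-values therefore measure only the spread between these libraries, which may be technical.

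The 3 GADD45 proteins are small, acidic and without enzyme activity of their own. They act by binding partners, among them the kinase MAP3K4 upstream of p38 and JNK, the CDK1 and cyclin B1 complex of mitotic entry, the replication clamp PCNA and the CDK inhibitor p21. Plk3 encodes a polo-like kinase of the stress and DNA damage response. Ndrg1 (N-myc downstream regulated 1) encodes a cytoplasmic protein known for its induction by hypoxia and by loss of iron, and it is phosphorylated by SGK1 and then GSK3.

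The promoter sequences show what the GADD45 genes do and do not share before their expression is compared. RefSeq sequences (GRCm38.p6) were matched for 4 of the 5 genes, all but Ndrg1. Each line runs 5′ to 3′ on the strand of the gene and holds only the bases upstream of the annotated gene. The lines cover chr6:67037458-67037657 on the minus strand for Gadd45a, chr10:80929841-80930072 on the plus strand for Gadd45b, chr13:51846425-51846674 on the plus strand for Gadd45g and chr4:117133964-117134213 on the minus strand for Plk3. Capitals mark the motifs named after the sequences, on either strand.
Gadd45a: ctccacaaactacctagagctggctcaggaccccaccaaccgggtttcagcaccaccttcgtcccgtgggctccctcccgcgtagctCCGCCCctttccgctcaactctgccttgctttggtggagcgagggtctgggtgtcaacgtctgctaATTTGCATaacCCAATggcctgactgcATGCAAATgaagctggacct
Gadd45b: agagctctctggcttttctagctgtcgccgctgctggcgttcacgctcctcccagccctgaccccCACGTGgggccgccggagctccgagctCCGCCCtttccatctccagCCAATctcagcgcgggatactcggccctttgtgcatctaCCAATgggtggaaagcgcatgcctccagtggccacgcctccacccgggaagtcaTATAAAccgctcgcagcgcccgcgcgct
Gadd45g: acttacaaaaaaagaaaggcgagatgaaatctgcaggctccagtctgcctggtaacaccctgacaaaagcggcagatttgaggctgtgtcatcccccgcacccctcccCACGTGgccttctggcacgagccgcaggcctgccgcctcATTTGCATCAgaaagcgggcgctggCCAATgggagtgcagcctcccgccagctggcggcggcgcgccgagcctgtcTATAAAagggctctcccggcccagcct
Plk3: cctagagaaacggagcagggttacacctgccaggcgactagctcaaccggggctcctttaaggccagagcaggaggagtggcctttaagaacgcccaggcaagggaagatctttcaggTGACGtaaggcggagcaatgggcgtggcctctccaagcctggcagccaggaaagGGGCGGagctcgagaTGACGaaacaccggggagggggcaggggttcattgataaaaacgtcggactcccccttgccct

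Motifs were searched on both strands in the 250 bases upstream of the start, and positions are those of the first base of the match, counted back from the RefSeq start. The octamer ATTTGCAT, the recognition sequence of POU factors such as OCT1, was present in 1.6% of 32851 promoters. It occurred in the Gadd45a promoter at 97 and, on the opposite strand, at 70 bases upstream, on either side of a CCAAT box at 86. Gadd45g held 1 octamer at 103 bases upstream with a CCAAT box at 78, and its octamer overlapped a reverse-strand match to TGATGNAA, the composite C/EBP and ATF site found in 3.45% of promoters. In Gadd45b no octamer was found, and it had 2 CCAAT boxes at 139 and 100 bases upstream (CCAAT was found in 33.8% of promoters).

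Gadd45b and Gadd45g each held a TATAAA match, at 46 and 27 bases upstream, a motif found in 12.4% of promoters. They also each held the E-box CACGTG, at 185 and 142 bases upstream, found in 6.02%. Every E-box contains ACGTG, the core of the hypoxia-inducible factor (HIF) element, on both strands, and ACGTG alone was found in 16.6% of promoters. The Plk3 promoter held none of these and instead carried the half-site TGACG of CREB and ATF factors at 132 and 63 bases upstream, a motif found in 17.8% of promoters. GC boxes (GGGCGG, 32.7% of promoters) lay in Gadd45a, Gadd45b and Plk3, and the AP-1 site TGANTCA (6.75%) was in none of the 4. These matches describe letters in a window and were not measured as bound sites.

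The 5 genes lie on 5 chromosomes of GRCm38. Gadd45a spans 67035096 to 67037457 on chromosome 6, Gadd45b 80930073 to 80932204 on chromosome 10 and Gadd45g 51846678 to 51848468 on chromosome 13, and each has 4 exons in its principal transcript. Plk3 has 15 exons at 117128655 to 117133963 on chromosome 4, and Ndrg1 has 16 exons at 66929318 to 66969640 on chromosome 15. The longest run of identical bases between the principal transcripts of any 2 GADD45 genes was 17 bases, between Gadd45a and Gadd45g. Gadd45a overlaps the opposite-strand transcript E230016M11Rik over 337 exonic bases, 19.1% of its exonic sequence, and that transcript was counted 22 to 42 times per library. Plk3 overlaps Tctex1d4 over 84 exonic bases (3.32% of its own), and Ndrg1 overlaps Gm17035 over 419 (6.35%) and Gm2895 over 137 (2.08%), none of which exceeded 4 counts in any library. The strand setting of the counting is not given in the sources used here, so in the shared bases reads of the 2 strands cannot be told apart.

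The libraries held 22791792 to 30677751 counts. The fibroblast label was checked with 9 markers, of which 8 were at 1 TPM (transcript abundance scaled by gene length and library total) or more in every library, the exception being Thy1 at 0.283 to 0.751 TPM. The endothelial markers summed to at most 0.428 TPM with Kdr at 0, the epithelial markers to 1.02 to 1.69 TPM, and the leukocyte markers to 8.91 to 11.9 TPM with Adgre1 at 0. The sum of the neural markers Tubb3, Nes and Sox2 (Sox2 at 0) was 261 to 262 TPM for vehicle, 279 to 289 for MASM7 and 289 to 307 for MFI8. The part of this shift in the results was not tested.

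Of the 5 genes, Gadd45b was the most abundant with vehicle and Gadd45a the least. TPM, which corrects for gene length, is used here wherever 1 gene is set against another. With vehicle, Gadd45b stood at 107 ± 6.69 TPM, Gadd45g at 72.2 ± 13.5, Ndrg1 at 37.5 ± 10.2, Plk3 at 32.8 ± 2.10 and Gadd45a at 12.2 ± 3.23 (mean ± SD, n = 2). Ndrg1 and Plk3 did not differ beyond their spread, and the other neighbours in this order did not overlap. The order of the means was kept with MASM7. With MFI8, Gadd45g came first by its mean, although its libraries spanned those of Gadd45b, and Ndrg1 and Plk3 again overlapped.

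**Figure D1:**
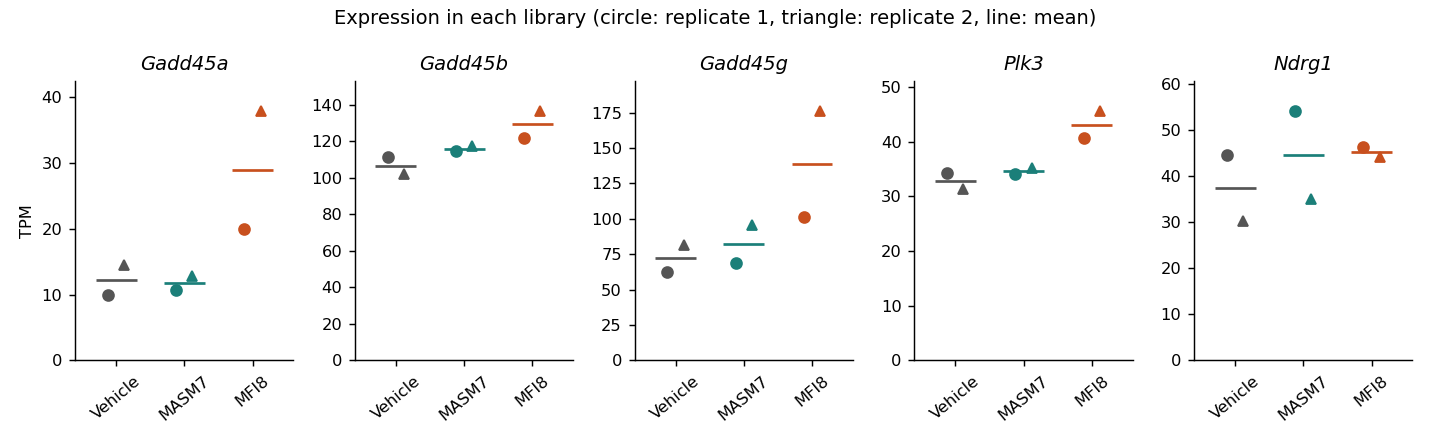
TPM (y axis, from 0, a separate scale for each gene) of the 5 genes in the vehicle, MASM7 and MFI8 libraries, with circles for replicate 1, triangles for replicate 2 and lines for the mean of 2. Both MFI8 libraries lie above both vehicle libraries for the 3 GADD45 genes and Plk3, whereas Ndrg1 varies more within vehicle and MASM7 than between groups.

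Gadd45a had the widest separation. Its TPM was 9.86 and 14.4 in the vehicle libraries, 10.7 and 12.8 in the MASM7 libraries and 19.9 and 37.8 in the MFI8 libraries. Both MFI8 libraries thus lay above all 4 others, and the MASM7 values lay between the 2 vehicle values. The difference between MFI8 and vehicle was 1.23 on the log2 scale (SE 0.278, 95% interval 0.61 to 1.86), or 2.35-fold, which ranked 44 from the top among the 14290 log2 fold changes. The 2 MFI8 libraries differed from each other by 0.92 in log2 CPM (counts scaled to the library total), and without the higher one, MFI8 replicate 2, the log2 fold change was 0.68. Gadd45a rested on 113 to 572 reads per library, the lowest counts of the 5. Its exact Poisson 95% interval was 93.1 to 136 counts in the first vehicle library and 526 to 621 in the second MFI8 library (intervals cover counting error only).

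Gadd45g, the family member best known as a cytokine-induced gene, was also higher in both MFI8 libraries, and more abundant than Gadd45a in every library. Its TPM was 62.6 and 81.7 in the vehicle libraries, 68.6 and 95.9 in the MASM7 libraries and 101 and 176 in the MFI8 libraries. The MFI8 libraries again lay above the other 4, while MASM7 and vehicle overlapped. The log2 fold change with MFI8 was 0.92 (SE 0.241, 95% interval 0.39 to 1.46), or 1.90-fold. Within MFI8 the libraries differed by 0.80 in log2 CPM, and the log2 fold change was 0.46 without MFI8 replicate 2.

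Gadd45b, a target of NF-kappaB and TGF-beta signalling, differed less. Its TPM was 111 and 102 in the vehicle libraries, 115 and 117 in the MASM7 libraries and 122 and 137 in the MFI8 libraries. The 3 groups did not overlap, and vehicle was lowest and MFI8 highest. The lower MFI8 library (122) was close to the higher MASM7 library (117). The share of all tested genes in this order, or with MFI8 above all other libraries as for Gadd45a and Gadd45g, was not counted. The log2 fold change with MFI8 was 0.26 (SE 0.0773, 95% interval 0.083 to 0.43), or 1.19-fold, from 1145 to 1861 reads per library.

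Plk3 was also higher in both MFI8 libraries. Its TPM was 34.3 and 31.3 in the vehicle libraries, 34.2 and 35.3 in the MASM7 libraries and 40.6 and 45.7 in the MFI8 libraries. MASM7 and vehicle overlapped, since the lower MASM7 library was just under the higher vehicle library. The log2 fold change with MFI8 was 0.37 (SE 0.0904, 95% interval 0.17 to 0.58), or 1.30-fold.

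Ndrg1 did not separate the groups. Its TPM was 44.7 and 30.3 in the vehicle libraries, 54.1 and 35 in the MASM7 libraries and 46.2 and 44.2 in the MFI8 libraries. The MFI8 libraries differed by 0.064 in log2 CPM, against 0.58 within vehicle and 0.62 within MASM7, and both MFI8 values fell inside the MASM7 range. The log2 fold change with MFI8 was 0.24 (SE 0.200, 95% interval -0.20 to 0.69), and it was 0.56 without vehicle replicate 1 and -0.018 without vehicle replicate 2. Its counts were 1413 to 3014 per library, so counting error was small beside this spread. With the replicate number added to the model, edgeR called Ndrg1 with MFI8 and DESeq2 did not, as the closing section gives. The labels do not say that these numbers pair libraries.

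In all, 4 of the 5 genes had both MFI8 libraries above both vehicle libraries, a pattern that 20.9% of all tested genes showed. Of these 4, Gadd45a and Plk3 were selected on this contrast, the values of all 4 were known when the set was put together, and the count is not evidence about them. In the quasi-likelihood test of edgeR with group as the only term, 0% of the 14290 genes passed a Benjamini-Hochberg adjusted p of 0.05 for MFI8 against vehicle, so none of the 5 did. That number depends on the model and the filter, as the alternatives in the closing section show. At an unadjusted p under 0.05 there were 1409 genes, and DESeq2 called 49 genes, with Gadd45a among them. Among the 14290 log2 fold changes, Gadd45g ranked 109 from the top, Plk3 783, Gadd45b 1343 and Ndrg1 1420.

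**Figure D2:**
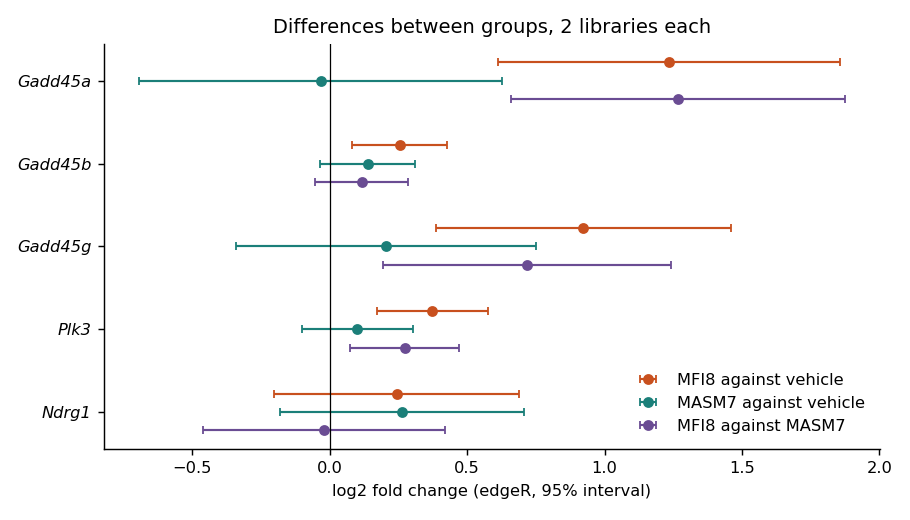
Log2 fold change (x axis, points) with its 95% interval (bars) from edgeR for MFI8 against vehicle, MASM7 against vehicle and MFI8 against MASM7, with 2 libraries per group. The MFI8 values for Gadd45a (1.23) and Gadd45g (0.92) are the farthest from 0 against vehicle, and every interval of MASM7 against vehicle spans 0.

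The same TPM values were also read as shares of the family, which adds no independent result. The summed level of the 3 GADD45 genes was 184 and 198 TPM in the vehicle libraries, 194 and 226 in the MASM7 libraries and 243 and 351 in the MFI8 libraries. Gadd45b made up 60.6% and 51.5% of this sum for vehicle, 59.1% and 51.9% for MASM7 and 50.3% and 39.0% for MFI8. Gadd45a made up 5.37% and 7.29%, 5.54% and 5.66%, and 8.19% and 10.8% in the same order. Its share was thus higher in both MFI8 libraries than in the other 4, and that of Gadd45b was lower. For Gadd45b the first MFI8 library (50.3%) was close to the second vehicle library (51.5%), while the first vehicle library stood at 60.6%. The ratio of Gadd45g to Gadd45b was 0.562 and 0.802 in the vehicle libraries, 0.598 and 0.818 in the MASM7 libraries and 0.827 and 1.29 in the MFI8 libraries. Gadd45g exceeded Gadd45b in 1 library only, MFI8 replicate 2, and the first MFI8 library was close to the second MASM7 library.

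**Figure D3:**
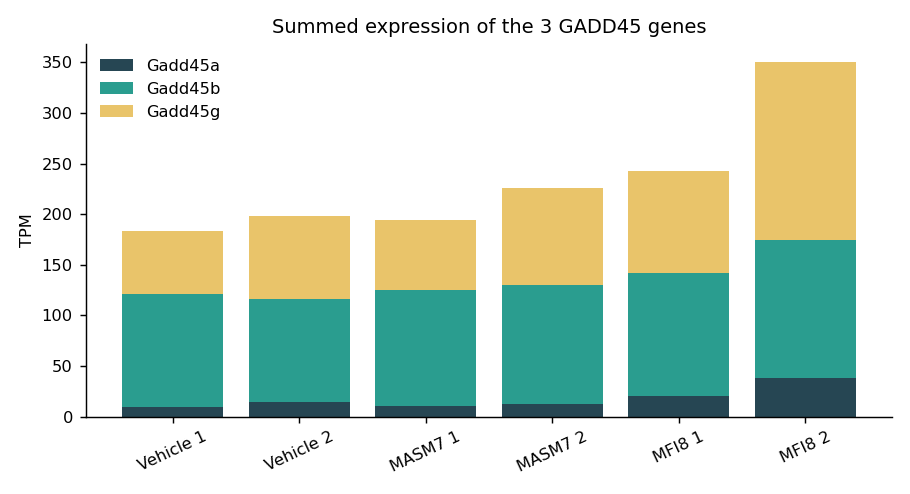
Stacked TPM (y axis, from 0) of Gadd45a, Gadd45b and Gadd45g in each of the 6 libraries. The total is highest in the 2 MFI8 libraries (243 and 351 TPM), and of the 3 genes Gadd45g differs most in mean TPM between MFI8 (139) and vehicle (72.2).

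The MASM7 libraries address whether the same genes respond when mitofusins are activated. They are compared with the same 2 vehicle libraries as MFI8 was, so these values are not independent of the choice of genes. None of the 5 passed the test. Gadd45b had a log2 fold change of 0.14 (SE 0.0771, adjusted p = 0.548), Ndrg1 of 0.27 (SE 0.199, adjusted p = 0.645) and Gadd45g of 0.20 (SE 0.245, adjusted p = 0.779) (edgeR quasi-likelihood test, Benjamini-Hochberg). For Plk3 it was 0.10 (SE 0.0907, adjusted p = 0.706) and for Gadd45a -0.03 (SE 0.296, adjusted p = 0.979). The 95% intervals left room for changes in both directions, from -0.69 to 0.63 for Gadd45a, -0.34 to 0.75 for Gadd45g and -0.18 to 0.71 for Ndrg1, and more narrowly from -0.034 to 0.31 for Gadd45b and -0.10 to 0.30 for Plk3. Gadd45b alone, 1 of 5, had both MASM7 libraries above both vehicle libraries, a pattern shown by 21.2% of all tested genes.

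With MASM7, as with MFI8, edgeR called 0% of the genes at an adjusted p of 0.05. At an unadjusted p under 0.05 there were 1458, none of them among the 5, and DESeq2 called 2 genes, also none of the 5. The sign of the MASM7 value changed when single libraries were left out for 3 genes. For Gadd45a it ran from -0.27 without vehicle replicate 1 to 0.26 without vehicle replicate 2, for Gadd45g from -0.062 without MASM7 replicate 2 to 0.43 without MASM7 replicate 1, and for Ndrg1 from -0.079 without MASM7 replicate 1 to 0.58 without vehicle replicate 1. Gadd45b and Plk3 kept their sign, but without vehicle replicate 2 their values were 0.067 and 0.027, and without vehicle replicate 1 they were 0.21 and 0.18. Ndrg1 was chosen with its MASM7 value known as well.

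**Figure D4:**
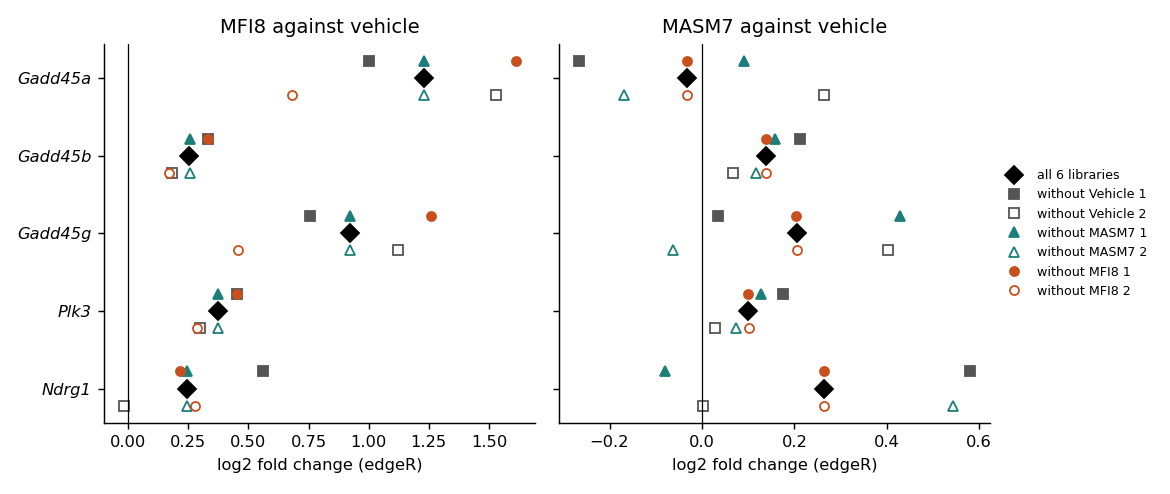
Log2 fold change (x axis, a separate scale for each panel) of the 5 genes against vehicle with all 6 libraries (black diamonds) and with 1 library left out at a time (squares for vehicle, triangles for MASM7, circles for MFI8, filled for replicate 1 and open for replicate 2). Without MFI8 replicate 2, Gadd45a fell to 0.68 and Gadd45g to 0.46 in the MFI8 panel, and in the MASM7 panel Gadd45a, Gadd45g and Ndrg1 lie on both sides of 0.

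Set against MASM7 directly, which shares the MFI8 libraries with the contrast used for the choice, the 3 GADD45 genes and Plk3 were again higher in both MFI8 libraries, against 19.6% of all tested genes. The log2 difference was 1.27 for Gadd45a (SE 0.272), 0.72 for Gadd45g (SE 0.235), 0.27 for Plk3 (SE 0.0886), 0.12 for Gadd45b (SE 0.0761) and -0.02 for Ndrg1 (SE 0.197). The 2 compounds were given at different concentrations, and these differences carry that with them. Without MFI8 replicate 2 the values were 0.71 for Gadd45a, 0.25 for Gadd45g and 0.031 for Gadd45b, and without MFI8 replicate 1 that of Gadd45b was 0.20. By edgeR 0% of the genes passed an adjusted p of 0.05, 1026 had an unadjusted p under 0.05, and DESeq2 called 29 genes, with Gadd45a among them.

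Across the 6 libraries, the GADD45 genes and Plk3 correlated more with each other than with Ndrg1. The Pearson correlation of log2 CPM was 0.96 between Gadd45a and Gadd45g and 0.949 between Gadd45b and Plk3, and the other pairs among these 4 genes lay between 0.702 and 0.838. Ndrg1 had values of -0.040 with Gadd45a and -0.11 with Gadd45g, and of 0.473 with Gadd45b and 0.384 with Plk3. These are descriptions over 6 points that share treatment groups and depth.

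Among 11988 genes with a mean CPM of at least 1, the closest patterns were named for each gene. Gadd45a was closest to Csrnp1 (an inducible nuclear protein, r = 0.996), Washc2 (a WASH complex subunit, 0.993) and Fzd7 (a Wnt receptor, 0.992). Gadd45g was closest to Retreg2 (0.994), Gpt2 (the mitochondrial alanine transaminase, 0.994) and Gm47594 (0.992). Gadd45b was closest to Trak1 (an adaptor for mitochondrial transport, 0.990), Cnnm4 (0.982) and C920009B18Rik (0.981), and Plk3 to Foxn3 (a forkhead factor, 0.996), 2410006H16Rik (0.992) and Hs1bp3 (0.987). Ndrg1 was closest to Fzd5 (a Wnt receptor, 0.990), Lrrc8a (a subunit of the volume-regulated anion channel, 0.987) and Foxo3 (a forkhead factor, 0.986). Over 6 points, 115 to 234 of these genes exceeded an r of 0.9 with each of the 5.

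The binding partners of the GADD45 proteins and the kinases below them numbered 13. All were tested, and none passed for either compound. Here and in the lists that follow, passing means an adjusted p under 0.05 in edgeR with group as the only term, and alternatives were run for the list genes named here but not for every list gene. With MFI8, 5 were higher and 8 lower with a median log2 fold change of -0.0065, beside 0.0027 over all genes tested. With MASM7 the split was again 5 and 8 and the median -0.038, beside 0.00067. Cdk1, the mitotic kinase that GADD45 proteins bind, had the smallest p among those lower with MFI8 (log2 fold change -0.14, SE 0.0532, adjusted p = 0.434). Gadd45gip1, which encodes a GADD45-binding protein of the mitochondrial ribosome, had the smallest p among those higher, at 0.066 with MFI8 (adjusted p = 0.732) and 0.14 with MASM7 (adjusted p = 0.477). Map2k4, a kinase of the JNK pathway, had the smallest p among those lower with MASM7, at -0.11 (adjusted p = 0.548).

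The lists, this one included, were chosen with earlier results of these data known, so their values are a description. The remaining genes named for growth arrest and DNA damage are Ddit3 and Ppp1r15a. In CPM both had the 2 libraries of each compound above vehicle, against 20.9% of all tested genes for MFI8 and 21.2% for MASM7. Ddit3, which encodes the transcription factor CHOP, stood at 24.9 and 23.3 TPM in the vehicle libraries, 28.4 and 28.6 in the MASM7 libraries and 36.7 and 44.7 in the MFI8 libraries. Its log2 fold change was 0.74 with MFI8 (SE 0.116, adjusted p = 0.0924) and 0.26 with MASM7 (SE 0.117, adjusted p = 0.489). Ppp1r15a, the stress-induced phosphatase subunit GADD34, stood at 31 and 32.2 TPM in the vehicle libraries, 31.8 and 35.5 in the MASM7 libraries and 40.6 and 55.1 in the MFI8 libraries. Its log2 fold change was 0.58 with MFI8 (adjusted p = 0.265), or 0.34 without MFI8 replicate 2, and 0.11 with MASM7 (adjusted p = 0.778). In TPM the lower MASM7 library of Ppp1r15a fell between the vehicle libraries, so its separation holds for CPM only.

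Of the remaining polo-like kinases, Plk2, a second stress-responsive member, was the most abundant, and Plk5 was not tested, with 1 read in all 6 libraries. Plk2 stood at 361 and 404 TPM in the vehicle libraries, 381 and 414 in the MASM7 libraries and 437 and 495 in the MFI8 libraries. Its log2 fold change was 0.26 with MFI8 (SE 0.0748, adjusted p = 0.357), or 0.17 without MFI8 replicate 2, and 0.07 with MASM7 (adjusted p = 0.747). The mitotic Plk1 had values of -0.056 and 0.049 with MFI8 and MASM7, and Plk4, the kinase of centriole duplication, of -0.05 and -0.11. The medians over these 3 genes were -0.050 with MFI8 (1 higher, 2 lower) and 0.050 with MASM7 (2 higher, 1 lower), and none passed.

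The 3 other NDRG genes belong to the same family as Ndrg1. Ndrg3, the closest of them to Ndrg1 in level, stood at 30.2 and 30.3 TPM in the vehicle libraries, 25.4 and 28.5 in the MASM7 libraries and 28.9 and 31.8 in the MFI8 libraries, with log2 fold changes of -0.15 (adjusted p = 0.508) for MASM7 and -0.02 for MFI8 (adjusted p = 0.946). Ndrg4 was lower in level, at 4.0 to 5.83 TPM, and had 0.30 with MFI8 (adjusted p = 0.533) and -0.03 with MASM7. Ndrg2 was at the limit of detection with 10 to 16 reads per library, and its values of -0.43 with MFI8 (SE 0.421) and -0.17 with MASM7 are imprecise at this depth. None passed, and the medians were -0.020 (1 higher, 2 lower) with MFI8 and -0.152 (0 higher, 3 lower) with MASM7.

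Among the 4 kinases that phosphorylate NDRG1, Sgk1 was higher in both MFI8 libraries, at 139 and 125 TPM in the vehicle libraries, 151 and 137 in the MASM7 libraries and 162 and 155 in the MFI8 libraries. Its log2 fold change was 0.24 with MFI8 (adjusted p = 0.379), or 0.15 without vehicle replicate 2, and 0.14 with MASM7 (adjusted p = 0.523). Gsk3b had values of -0.05 with MFI8 (adjusted p = 0.801) and -0.16 with MASM7 (adjusted p = 0.473), and Gsk3a of 0.039 and 0.086. Sgk3 had 5 to 21 reads per library and values of -0.16 with MFI8 and -0.91 with MASM7, with standard errors of 0.562 and 0.606. The medians were -0.0060 with MFI8 and -0.039 with MASM7, each with 2 higher and 2 lower, and none passed.

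**Figure D5:**
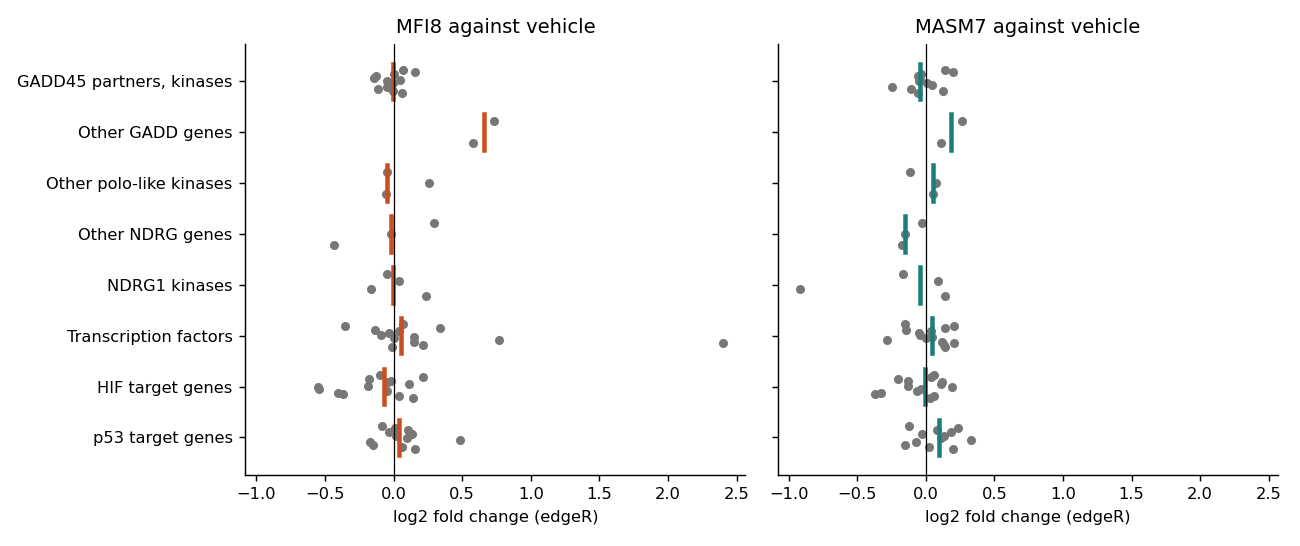
Log2 fold change (x axis) of each tested gene (grey points) in 8 gene lists around the 5 genes, for MFI8 and MASM7 against vehicle, with the list median as a coloured bar. The Other GADD genes, a list of 2, have the highest median with MFI8 (0.66), Atf3 is the point at 2.40, and the medians of the other lists lie near 0.

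Transcription factors that act on the 5 genes were considered next. Of 15 listed, 14 were tested and none passed. With MFI8, 9 were higher and 5 lower (median 0.057), and with MASM7 the split was also 9 and 5 (median 0.043). Both MFI8 libraries lay above both vehicle libraries for 6 of 14, against 20.9% of all tested genes. They lay below them for 2 of 14, against 19.3%. With MASM7, 2 of 14 lay above in this way, against 21.2%, and 3 of 14 below, against 21.6%. The list was chosen with earlier results of these data known, so these counts are a description. Atf3, a stress-induced factor of the ATF family, had the smallest p among those higher with MFI8. Its TPM was 3.65 and 5.05 in the vehicle libraries, 4.01 and 5.90 in the MASM7 libraries and 11.3 and 34.9 in the MFI8 libraries, a log2 fold change of 2.40 (SE 0.463, adjusted p = 0.186). As for Gadd45a and Gadd45g, the second MFI8 library was the higher one, and without it the value for Atf3 was 1.34. Hif1a, the oxygen-regulated subunit of HIF, had the smallest p among those lower with both compounds, at -0.13 with MFI8 (adjusted p = 0.468) and -0.14 with MASM7 (adjusted p = 0.477). Trp53, the gene of p53, had the smallest p among those higher with MASM7, at 0.14 (adjusted p = 0.473).

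Ndrg1 is itself a HIF target, and most of the other HIF targets had negative values with MFI8. Of 16 listed, 14 were tested, and none passed. With MFI8, 4 were higher and 10 lower, with a median of -0.070 that ran from -0.035 (limma on log2(TPM + 1)) to -0.147 (without MFI8 replicate 2). Both MFI8 libraries lay below both vehicle libraries for 7 of 14, against 19.3% of all tested genes, and above them for 2 of 14, against 20.9%. With MASM7, 7 were higher and 7 lower (median -0.0032), 6 of 14 lay below vehicle in this way, against 21.6%, and 4 of 14 above, against 21.2%. Bnip3, a mitophagy receptor, was lower in both MFI8 libraries, at 20.5 and 21.0 TPM in the vehicle libraries, 16.7 and 16.1 in the MASM7 libraries and 14.3 and 17.4 in the MFI8 libraries (log2 fold change with MFI8 -0.41, SE 0.119, adjusted p = 0.358). Pfkfb3, a regulator of glycolysis, had 0.21 with MFI8 (adjusted p = 0.527). With MASM7, Kdm3a, a histone demethylase, had -0.20 (adjusted p = 0.473) and P4ha2, a collagen prolyl hydroxylase, 0.11 (adjusted p = 0.576).

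The p53 targets, the class to which Gadd45a also belongs, were tested in full. Of 12 genes, 8 were higher and 4 lower with either compound, with medians of 0.043 for MFI8 and 0.099 for MASM7, and none passed. Sesn2, a stress-induced regulator of mTORC1, stood at 26 and 31 TPM in the vehicle libraries, 32.6 and 38.4 in the MASM7 libraries and 35.2 and 45.8 in the MFI8 libraries. Its log2 fold change was 0.48 with MFI8 (SE 0.134, adjusted p = 0.357) and 0.33 with MASM7 (SE 0.134, adjusted p = 0.477). Without MFI8 replicate 2 the former was 0.28, and without MASM7 replicate 2 the latter was 0.21. Ccng1, the cyclin G1 gene, had the smallest p among those lower with both compounds, at -0.15 for each (adjusted p = 0.571 with MFI8 and 0.531 with MASM7).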

How the data were processed

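RNA-seq of WT MEFs was analysed from 2 tables that the authors deposited: raw counts per gene, and TPM (length-scaled transcript abundance) of the same 6 libraries. Per the labels and methods, the authors used bcl2fastq, Trimmomatic, STAR on mm10/GRCm38, featureCounts over exons, and DESeq2. A normalized table was not used. How the authors made TPM from the counts is not given in the sources used here. The counts were tested in edgeR 4.0.16 (R 4.3.3; filterByExpr, TMM scaling, quasi-likelihood F test over all 6 libraries with group as the only term, 3 residual degrees of freedom per gene before moderation) with Benjamini-Hochberg adjustment over 14290 genes at 0.05. With 2 libraries a group, an exact permutation test of 1 gene cannot go below 0.333. DESeq2 1.42.0, limma 3.58.1 on log2(TPM + 1) and other alternatives were run. A code check of the edgeR step used simulated counts with the same spread for all genes, so it does not bear on the genes described here. The members and lists were chosen with earlier results of these data known. Named genes were the 5 members, all genes of lists of at most 4, the smallest p in each direction of each list, and the 3 genes nearest to each member by Pearson r of log2 CPM (prior count 2). Sequences came from RefSeq, GRCm38.p6, and gene positions from GENCODE.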

Additional observations from a re-analysis of the deposited data

How the results depend on the processing

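For MFI8 against vehicle, Gadd45a, Gadd45b, Gadd45g and Plk3 kept their sign under all 16 alternatives, and the number of genes called by edgeR moved from 0 to 256 with genes of at least 1 count in any library, to 49 with DESeq2 and to 0 to 26 with 1 library left out. For MASM7 against vehicle the counts were 127, 2 and 0 to 2, and 1 with only the 2 groups compared. For MFI8 against MASM7 they were 168, 29 and 0 to 24, and 2 with only the 2 groups compared. The cause of these shifts was not tested. The kept signs with MFI8 against vehicle are no independent check. Gadd45a, Gadd45b, Gadd45g and Plk3 each had both MFI8 libraries above both vehicle libraries, and Gadd45a and Plk3 were selected on this contrast. Leaving out 1 library or refitting the same counts could therefore hardly reverse their sign.

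With the lower count minimum, log2 fold changes past the adjusted threshold were 1.24 (Gadd45a), 0.931 (Gadd45g) and 0.381 (Plk3) for MFI8 against vehicle, 0.285 (Ndrg1) for MASM7 against vehicle, and 1.26 (Gadd45a) and 0.707 (Gadd45g) between the compounds. With DESeq2, Gadd45a passed at 1.23 against vehicle and 1.26 against MASM7. These calls are on genes chosen with their values known. Of the list genes named in the text, the only ones refitted, with MFI8 the lower count minimum let Atf3 (2.41), Ddit3 (0.744), Ppp1r15a (0.587), Plk2 (0.267), Sesn2 (0.493) and Sgk1 (0.245) pass, and DESeq2 let Ddit3 (0.734) and Ppp1r15a (0.577) pass. With MASM7, Sesn2 passed with the lower count minimum (0.352). Under this minimum the SE with MFI8 was 0.172 for Atf3 and 0.0936 for Gadd45g, against 0.463 and 0.241 in the main fit. For Ddit3 it was 0.121 against 0.116. The MFI8 libraries differed by 1.62 (Atf3) and 0.80 (Gadd45g) in log2 CPM, so a small SE for these genes is no replicate check.

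The labels give the 3 groups the replicate numbers 1 and 2 without saying that they pair libraries. The differences between replicates correlated at 0.188 (vehicle and MASM7), 0.152 (vehicle and MFI8) and 0.165 (MASM7 and MFI8) over 14290 genes. With the replicate block, edgeR called 720 genes for MFI8 against vehicle, 554 for MASM7 against vehicle and 439 between the compounds, and DESeq2 with the block called 220, 205 and 110. Within same-numbered libraries the log2 CPM of Ndrg1 differed from vehicle by 0.281 and 0.236 with MASM7 and by 0.0142 and 0.528 with MFI8. All 5 genes then passed in edgeR for MFI8 against vehicle, at 1.22 (Gadd45a), 0.257 (Gadd45b), 0.902 (Gadd45g), 0.375 (Plk3) and 0.277 (Ndrg1). In DESeq2 with the block none of the 5 was called in that contrast, where Gadd45a, Gadd45b, Gadd45g and Plk3 were given no adjusted p and Ndrg1 did not pass. The named list genes that passed with the block in edgeR were Atf3, Ddit3, Ppp1r15a, Plk2, Sgk1, Sesn2 and Bnip3 (-0.408) with MFI8 and Sesn2 (0.335) with MASM7, and those in DESeq2 were Plk2 (0.258) and Sgk1 (0.241) with MFI8. Between the compounds with the block, Gadd45a passed at 1.23, Gadd45g at 0.698 and Plk3 at 0.274 in edgeR, and Gadd45a at 1.2 and Gadd45g at 0.685 in DESeq2.

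With 1 library left out, log2 fold changes with MFI8 against vehicle ran from 0.682 to 1.61 for Gadd45a, 0.458 to 1.26 for Gadd45g and -0.0178 to 0.562 for Ndrg1, and Gadd45a and Gadd45g passed without MFI8 replicate 1, as did Atf3, Ddit3 and Ppp1r15a. That fit keeps 1 MFI8 library, the higher one for these genes, whose spread is assumed to be that of the other groups, so these passes give no replicate check. Ranges that crossed 0 were -0.117 to 0.0102 for Plk1, -0.111 to 0.0161 for Plk4, -0.0897 to 0.0462 for Ndrg3 and -0.792 to 1.11 for Sgk3. With MASM7 against vehicle they were -0.267 to 0.264 for Gadd45a, -0.062 to 0.429 for Gadd45g, -0.0791 to 0.581 for Ndrg1, -0.0159 to 0.116 for Plk1, -0.168 to 0.098 for Ndrg4, -1.54 to 0.363 for Sgk3 and -0.0094 to 0.176 for Gsk3a. Between the compounds the ranges were 0.714 to 1.64 for Gadd45a, 0.252 to 1.06 for Gadd45g and -0.299 to 0.324 for Ndrg1.

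List medians ranged over both signs with MFI8 for the GADD45 partners (-0.0395 to 0.0478), polo-like kinases (-0.111 to 0.0161), NDRG genes (-0.0432 to 0.161), NDRG1 kinases (-0.0183 to 0.108) and p53 targets (-0.00388 to 0.0699). With MASM7 they did so for the polo-like kinases (-0.0159 to 0.116), NDRG1 kinases (-0.0711 to 0.0859), transcription factors (-0.0132 to 0.0993), HIF targets (-0.0721 to 0.0836) and p53 targets (-0.000717 to 0.118), and the other medians kept their sign. Values close to 0 also changed sign elsewhere. Ndrg1 between the compounds was 0.00155 with library size alone, 0.0164 with the replicate block, 0.0189 with DESeq2 and the block, and 0.0539 and 0.0557 with limma on log2(TPM + 1) and log2(TPM + 0.1). Ndrg3 with MFI8 was 0.00369 and 0.00376 in the same limma fits. Depth limits Ndrg2, Sgk3 and Plk5, and the spread of 2 libraries limits every comparison.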
